A study of Mus musculus with 4 samples.

Results

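The endoplasmic reticulum (ER) folding machinery and its stress response were followed in naive T cells whose furin gene had been targeted. Furin is a proprotein convertase that cuts precursor proteins on their way out of the cell. The set comprised 31 genes, listed by function as stress sensors, transcription factors, chaperones, degradation factors and ATF4 targets. Their members were all 74 probe sets that the platform annotation maps to 1 of these symbols alone, out of 18193 genes with such a probe set.

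The cells were CD4+ CD62L+ CD44- T cells, isolated fresh and sorted, from mice aged 10 to 11 weeks. The knockout group carried fur flox/flox with CD4-cre, in which the CD4 promoter drives the recombinase in T cells, and the wild-type group were littermates with fur flox/flox and no Cre. Both groups therefore carried the floxed gene, and the labels mention no control with Cre alone. RNA of each group was read on 2 Affymetrix expression arrays, numbered 1 and 2, 4 arrays in all. Whether both arrays of a genotype came from separate mice is not stated in the labels, so p-values measure the spread between these samples, which may be technical. Furin itself has 1 probe set, with signals of 435.1 and 343.9 on wild-type arrays 1 and 2 and 391.4 and 446.9 on the arrays labelled knockout, so the groups overlapped (-0.15 within number 1 and 0.36 within number 2). Which exons were floxed is not given here, and the probes may match sequence that remains, so Furin's signal is no check of the genotype. Knockout below means the arrays so labelled.

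Secreted and membrane proteins fold in the ER with the help of chaperones, lectins and disulfide isomerases. When unfolded proteins build up, 3 membrane sensors respond. IRE1 (Ern1) splices Xbp1 mRNA, PERK (Eif2ak3) phosphorylates the translation factor eIF2 alpha and so favours translation of Atf4, and ATF6 is cut to release a transcription factor. Their outputs raise chaperones, the ER-associated degradation machinery and, through ATF4, amino acid and stress genes such as Ddit3 (CHOP). Resting naive T cells secrete little, whereas antibody-secreting plasma cells are known for a large ER. The arrays measure mRNA, so splicing, phosphorylation and cleavage of these regulators were not measured.

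Values are the deposited signals, on a linear scale, and differences are knockout minus wild type after taking log2(signal + 15.3), so changes of dim probe sets are understated. A gene is represented by its brightest probe set among those whose mean signal exceeded 65.4, and such probe sets are called kept. The kept probe sets numbered 62 of the 74, from 30 of the 31 genes; Chac1 had 1 probe set, which was dim. Levels of different probe sets are not set against each other, because probes differ in brightness.

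The promoters of some members hold known elements of this response. RefSeq promoter windows of assembly GRCm38.p6, from 250 bases before to 50 bases after the start, were matched for 27 of the 31 members, as 28 windows. Windows of Atf6, Hyou1, Manf and Derl1 were not used here. The ER stress response element, CCAAT followed by any 9 bases and then CCACG, is the known binding site of ATF6 with NF-Y. Searched on both strands, it was found in 9 of the 28 member windows, or 32.1%, against 39 of 32851 windows of all genes, or 0.119%. Of those 39 windows in the whole table, 9 therefore belonged to members. Its shorter variant, ATTGG, any base, CCACG, was in 2 member windows (7.14%, against 0.0365% of all), those of Herpud1 and Dnajb11. The UPR element TGACGTGG was in 0 of the 28, against 0.676% of all. Most member windows thus held no ER stress response element. The members were listed as genes of this response and the elements are known from it. The larger share is therefore a description and not a result of these arrays.

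The stretches below, 5' to 3' on the strand of the gene, show the matches that lie before the start, because the element was found in a larger share of member windows than of all windows. Capitals mark the element, and a match on the opposite strand reads as its reverse complement. The last line is the shorter variant in Herpud1.
Hspa5, chr2:34772013-34772055, plus strand: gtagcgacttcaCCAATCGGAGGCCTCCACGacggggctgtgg
Hsp90b1, chr10:86705626-86705668, minus strand: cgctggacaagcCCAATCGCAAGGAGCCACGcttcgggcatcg
Hsp90b1, chr10:86705521-86705563, minus strand: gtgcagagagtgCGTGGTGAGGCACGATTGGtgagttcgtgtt
Dnajc3, chr14:118937815-118937857, plus strand: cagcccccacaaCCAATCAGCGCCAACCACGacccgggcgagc
Creld2, chr15:88819508-88819550, plus strand: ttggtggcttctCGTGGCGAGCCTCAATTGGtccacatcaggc
Pdia6, chr12:17266479-17266521, plus strand: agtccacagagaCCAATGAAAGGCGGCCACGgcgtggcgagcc
Calr, chr8:84847063-84847105, minus strand: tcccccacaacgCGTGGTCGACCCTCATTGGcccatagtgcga
Canx, chr11:50325788-50325830, minus strand: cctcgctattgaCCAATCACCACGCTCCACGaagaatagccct
Syvn1, chr19:6046520-6046562, plus strand: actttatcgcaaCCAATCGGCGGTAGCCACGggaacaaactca
Derl3, chr10:75893230-75893272, plus strand: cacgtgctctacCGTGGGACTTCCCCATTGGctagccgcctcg
Herpud1, chr8:94386365-94386399, plus strand: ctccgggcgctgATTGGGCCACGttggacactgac

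The C/EBP-ATF response element, TGATGNAA with N for any base, through which ATF4 acts, was found in 4 of 28 member windows (14.3%, against 3.97% of all windows). The 4 were the 3 ATF4 targets Trib3, Asns and Chac1, and Herpud1. The 3 had been listed as ATF4 targets beforehand, so this share too is a description. Those before the start read as follows, again with the element in capitals.
Asns, chr6:7693213-7693244, minus strand: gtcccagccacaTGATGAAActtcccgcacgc
Chac1, chr2:119351037-119351068, plus strand: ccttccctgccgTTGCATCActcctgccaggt
Herpud1, chr8:94386305-94386336, plus strand: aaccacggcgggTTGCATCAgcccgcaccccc

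The arrays differed more by number than by genotype. From number 1 to number 2 the bacterial hybridisation controls gained 6.25-fold in wild type and 6.09-fold in knockout. The 3' to 5' ratio of Gapdh was 4.09 (wild type) and 3.35 (knockout) with number 1, and 0.905 and 0.934 with number 2. That of actin went the other way and was 1.39-fold (wild type) and 1.47-fold (knockout) higher with number 2 than with number 1. Array number may therefore be a technical batch, although the labels do not say what it stands for. Each difference is given within number 1 and within number 2. The main fit did not include the number as a block, and fits with the block are given beside it. The T cell markers Cd3d, Cd3e, Cd3g, Cd4, Cd28, Ccr7, Il7r and Lef1 all had kept probe sets. Cd4 signals lay between 2974.4 and 3432.4, and Cd3d signals between 9725.3 and 42640.1. Of these 8 markers, 0 were higher in knockout within both numbers and 4 (Cd28, Ccr7, Il7r and Lef1) were lower. Over all kept genes, 27.6% were higher and 27.2% lower within both.

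No member passed the test between the genotypes. Fitted by limma with no block, 0 of the 62 kept member probe sets passed an adjusted p of 0.05 (Benjamini-Hochberg), against 0% of all 22518 kept probe sets, and 0 had an unadjusted p under 0.05, against 0.644% of all. This fit called no gene of any kind. With array number as a block, limma again called 0 member probe sets at the adjusted threshold, against 0.00444% of all, and 4 (6.45%) had an unadjusted p under 0.05, against 8.12% of all, a share no larger than the background. The 4 were both kept probe sets of Ern1, which were lower, and 1 each of Derl3 and Syvn1, which were higher. With the block and a trended prior limma called 0 member probe sets, against 1.14% of all. The smallest limma adjusted p of a member was 0.562 with the block and 0.218 with the trended prior as well.

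The members' differences were also small. Their median was 0.06, with 0.06 in the arrays numbered 1 and 0.04 in those numbered 2, beside -0.002 over all 10226 kept genes. The median size of a member's difference, regardless of sign, was 0.16, beside 0.15 over all kept genes. A difference of more than 1.5-fold was found for 2 of 30 members, Ern1 and Derl3, or 6.67%, beside 6.05% of all kept genes. With the block, the 95% interval of 27 of the 30 members lay inside a 2-fold change in either direction, and those of Ern1, Derl3 and Trib3 reached beyond it. Without the block the intervals were wider, and 7 of 30 lay inside a 2-fold change. Unless stated otherwise, each SE printed below is that of limma without the block, so it includes the spread between array numbers. Across the members it ran from 0.32 to 0.77, against 0.19 to 0.25 with the block.

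Of the 30 members, 11 were higher in the knockout array within both numbers, beside 27.6% of all kept genes, and 7 were lower within both, beside 27.2%. The other 12 had opposite signs in the 2 numbers. Both knockout arrays lay above both wild-type arrays for 4 members, Hspa5, Syvn1, Derl3 and Trib3, beside 8.56% of all kept genes. They lay below both for 3 members, Ern1, Pdia6 and Herpud1, beside 7.93%. As shares of the 30 members these counts are 36.7%, 23.3%, 13.3% and 10.0%.

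**Figure D1:**
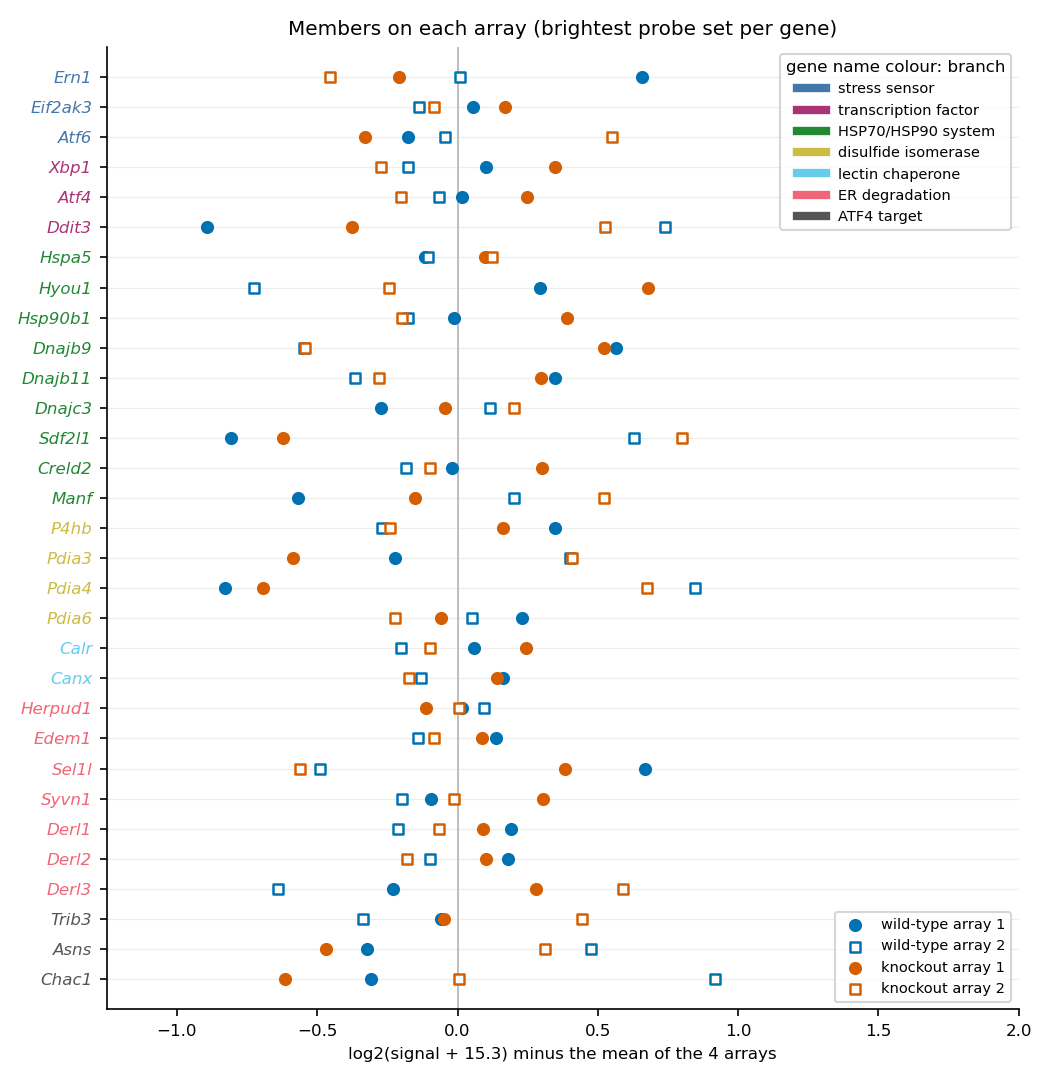
Signal of the 31 genes on each array, as log2(signal + 15.3) minus the mean of the 4 arrays, for the brightest probe set of each gene; gene names are coloured by branch. Circles are arrays numbered 1 and squares those numbered 2, wild type in blue and knockout in orange; for Sdf2l1, Pdia4 and Dnajb9 the shapes separate the arrays, while Ern1, Pdia6 and Herpud1 have both orange points left of both blue ones.

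**Figure D2:**
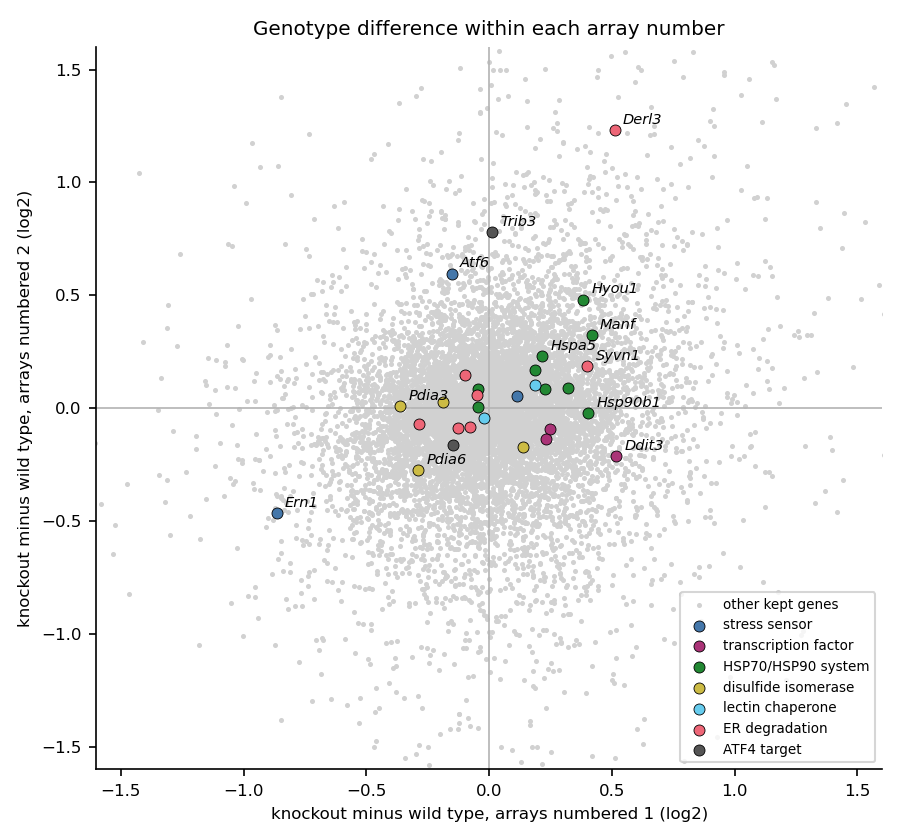
Knockout minus wild type (log2) within the arrays numbered 1 (horizontal) and numbered 2 (vertical) for the 30 members with a kept probe set, coloured by branch, over all other kept genes in grey; 176 genes lie outside the axes at 1.6. Derl3 (0.51 and 1.23) and Ern1 (-0.87 and -0.46) lie farthest out along the diagonal, and most members lie within the grey cloud around 0.

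Among the 3 sensors, Ern1 had the lowest difference of all members. Its signals were 560.5 and 352.1 on wild-type arrays 1 and 2 and 300.7 and 251 on knockout arrays 1 and 2. Both knockout arrays were below both wild-type arrays. The difference was -0.66 (SE 0.39), or 0.631-fold, with -0.87 within number 1 and -0.46 within number 2. The 95% interval ran from -1.68 to 0.35 without the block and from -1.19 to -0.14 with it (limma adjusted p = 0.572 with the block).

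The other kept Ern1 probe set, a dimmer one, was at 99.3 and 172.8 on the wild-type arrays and 73.2 and 74.3 on the knockout arrays. It too was lower within both numbers, at -0.37 and -1.07. Its remaining 3 probe sets were dim and each changed sign between the numbers. Eif2ak3, which encodes PERK, had signals of 1174.6 and 1026.5 in wild type and 1272.3 and 1067.1 in knockout. It differed by 0.08 (SE 0.33), with 0.11 and 0.06 within the numbers, so these groups overlapped. Atf6 stood at 149.5 and 165.4 in wild type and at 133 and 257.8 in knockout. Only knockout array 2 was high, and a dimmer kept Atf6 probe set went the other way, at -0.16 and -0.30. In that probe set both knockout arrays (74.7 and 73.5) were below both wild-type arrays (85.6 and 93.8). Ern1 was thus the only sensor of the 3 with both knockout arrays below wild type in its brightest probe set; the difference between sensors was not tested.

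Each of the 3 transcription factors of the response was higher in knockout within number 1 and lower within number 2. Xbp1, whose spliced form encodes an activator of chaperone genes, was at 3776.8 and 3111.2 in wild type and 4483.6 and 2914 in knockout, a difference of 0.08 (SE 0.39; 0.25 and -0.09). All 4 kept Xbp1 probe sets had this pattern of signs. Atf4 was at 4087.3 and 3861.2 in wild type and 4801.9 and 3514.3 in knockout, at 0.05 (SE 0.35; 0.23 and -0.14). Its other kept probe set gave 1.02 and -0.29. Ddit3, the pro-apoptotic factor CHOP, was at 528.1 and 1667.6 in wild type and 762.5 and 1437.8 in knockout, at 0.15 (SE 0.68; 0.52 and -0.21). In these 3 genes the knockout signals lay inside, or on both sides of, the wild-type range, and the sign depended on the array number.

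Chaperones of the HSP70 and HSP90 system had the highest median of the larger branches, at 0.19, with 0.23 within number 1 and 0.09 within number 2. Of its 9 genes 6 (66.7%) were higher within both numbers and 0 lower within both, beside 27.6% and 27.2% of all kept genes, and 0 passed the test. Hspa5 encodes BiP, the main ER chaperone of the HSP70 family and a sentinel of ER stress. Its signals were 10226.8 and 10296 in wild type and 11879.4 and 12081 in knockout. The wild-type arrays nearly coincided, and so did the knockout arrays, which were higher. The difference was 0.22 (SE 0.32 without the block and 0.19 with it; 0.22 and 0.23), or 1.17-fold. Its 95% interval under the block was -0.25 to 0.70 (limma adjusted p = 0.798 with the block). The 2 dimmer probe sets of Hspa5 were at 0.52 and 0.04, and at 0.42 and -0.04, so they were higher mainly within number 1.

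Hyou1, a large HSP70 relative that exchanges nucleotide on BiP, was at 1665.4 and 814.4 in wild type and 2177.8 and 1142 in knockout. It differed by 0.43 (SE 0.55; 0.38 and 0.48), while its other kept probe set changed sign between the numbers, at -0.52 and 0.60. Manf, a secreted ER stress factor that binds BiP, was at 2044.9 and 3498.2 in wild type and 2735.7 and 4378.2 in knockout, at 0.37 (SE 0.46; 0.42 and 0.32). In both genes the arrays of 1 number were brighter in either genotype, so the groups overlapped although knockout was higher within each number. With an array left out, the balance of numbers was lost and the Hyou1 difference ranged from -0.08 to 0.94 and that of Manf from -0.02 to 0.75.

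Creld2, an ER-resident protein induced by stress, was at 1062 and 945.2 in wild type and 1329.6 and 1005.9 in knockout, at 0.20 (SE 0.35; 0.32 and 0.09). Dnajc3, a J-domain co-chaperone also known as P58IPK, differed by 0.16 (SE 0.35; 0.23 and 0.08), and 4 of its 5 kept probe sets were higher within both numbers. Sdf2l1, a partner of BiP and J-domain proteins, had the steepest split by array number among the brightest probe sets of this branch. It was at 155.4 and 179 with number 1 (wild type, then knockout) and at 447.5 and 505.6 with number 2, which left a genotype difference of 0.18 (SE 0.73; 0.19 and 0.17). Hsp90b1, the ER HSP90 known as GRP94, was at 4424.6 and 3951.1 in wild type and 5856.2 and 3893 in knockout. Only knockout array 1 stood out, and the difference was 0.19 (SE 0.37; 0.40 and -0.02). The other kept probe set of Hsp90b1 was at -0.01. The J-domain co-chaperones Dnajb9 and Dnajb11 were nearly level, at -0.02 (SE 0.59; -0.04 and 0.004) and 0.02 (SE 0.44; -0.05 and 0.08).

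Disulfide isomerases, which form and shuffle disulfide bonds, had a median of -0.13. All 4 had a difference below 0, but 1 of the 4 (25%) was lower within both numbers, beside 27.2% of all kept genes. That gene was Pdia6, at 3105.7 and 2739.9 in wild type and 2540.7 and 2261.6 in knockout. Both knockout arrays were below both wild-type arrays, by -0.28 (SE 0.33 without the block and 0.19 with it; -0.29 and -0.28). The 95% interval under the block was -0.75 to 0.19. P4hb, the founding disulfide isomerase, was at -0.08 (SE 0.40; -0.19 and 0.03). Pdia3, which works with the lectin chaperones, was at -0.18 (SE 0.50; -0.36 and 0.01), and its dimmer kept probe set at 0.01. Pdia4 was at -0.02 (SE 0.77; 0.14 and -0.17). The lectin chaperones calreticulin and calnexin hold glycoproteins until they fold. Calr was at 6670.2 and 5566.6 in wild type and 7586.2 and 5981.4 in knockout, at 0.14 (SE 0.35; 0.19 and 0.10), and all 3 of its probe sets were higher within both numbers. Canx was at -0.03 (SE 0.35; -0.02 and -0.04), but its 3 kept probe sets ran from -0.03 to 0.25.

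The degradation branch had a median of 0.003 and members of either sign. Of its 7 genes 2 (28.6%) were higher and 3 (42.9%) lower within both numbers, beside 27.6% and 27.2% of all kept genes. Syvn1 encodes HRD1, the ubiquitin ligase at the centre of ER-associated degradation, and was at 885.5 and 822.1 in wild type and 1172.8 and 936.8 in knockout. Both knockout arrays were above both wild-type arrays, by 0.29 (SE 0.34; 0.40 and 0.19). A dimmer Syvn1 probe set had 612.5 and 496.6 in wild type and 856.4 and 770.8 in knockout, a difference of 0.55. Its 95% interval was -0.33 to 1.42 without the block and 0.07 to 1.03 with it (limma adjusted p = 0.595 with the block). Sel1l, the adaptor that stabilises HRD1, was at -0.18 (SE 0.58; -0.29 and -0.07). Its 5 kept probe sets ran from -0.23 to 0.07, with 2 lower and 1 higher within both numbers. Herpud1, a membrane component of the same complex, was at 2131.1 and 2254.1 in wild type and 1949.8 and 2116.8 in knockout, lower by a small margin at -0.11 (SE 0.32; -0.13 and -0.09). Edem1, which recognises trimmed glycans, was at 0.003 (SE 0.33; -0.05 and 0.06), and its other kept probe set at -0.10.

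The derlins are membrane proteins of the retrotranslocation channel. Derl1 was at 0.02 (SE 0.35; -0.10 and 0.15), and its 4 kept probe sets ran from 0.02 to 0.25. Derl2 was at -0.08 (SE 0.34; -0.08 and -0.08), and its other kept probe set at -0.32. Derl3 had the highest difference of all members. Its only probe set was dim, just above the filter, at 63.5 and 44 in wild type and 97 and 123.9 in knockout. Both knockout arrays were above both wild-type arrays, by 0.87 (SE 0.36; 0.51 and 1.23), or 1.83-fold. The 95% interval was -0.07 to 1.81 without the block and 0.25 to 1.49 with it (limma adjusted p = 0.562 with the block). Derl3 is known to be abundant in plasma cells, and markers of that cell type differed on the same arrays. Of 11 measured plasma cell markers, 6 were higher and 1 was lower in knockout within both numbers, beside 27.6% and 27.2% of all kept genes. Their summed signal was 8496.9 and 3735.6 in wild type and 7524.2 and 22215 in knockout. None was below 15.3 on all arrays. The 8 kept markers of this list had a median difference of -0.15 within number 1 and 1.12 within number 2. The surface marker Sdc1, which was dim and not among those 8, was at 12.8 and 17.7 in wild type and 38.7 and 110.1 in knockout. Tnfrsf13b, the 1 marker lower within both numbers, was kept and was at -0.62 and -0.18. The kept markers Jchain, Prdm1 and Txndc5 were lower within number 1, at -0.56, -0.43 and -0.33, and higher within number 2. The part of such cells in the Derl3 value was not tested. In a bulk sample, a change in the number of cells of a type and a change in RNA per cell cannot be told apart.

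The ATF4 targets had no common direction. Trib3, a pseudokinase induced by CHOP and ATF4, was at 211.9 and 172.1 in wild type and 213.5 and 306.7 in knockout. Only knockout array 2 was clearly high, and the difference was 0.40 (SE 0.37; 0.01 and 0.78); the other kept probe set gave -0.01 and 0.46. Asns, asparagine synthetase, was at 57.4 and 111.1 in wild type and 50.4 and 97.4 in knockout, lower within each number at -0.16 (SE 0.48; -0.15 and -0.17). Chac1, a glutathione-degrading enzyme, was too dim for the test, with signals of 26.4 and 82.4 in wild type and 18.5 and 36.6 in knockout. The summed signals of plasma cell, B cell and myeloid markers were also highest on knockout array 2, where Trib3 and Atf6 were high; their part in those values was not tested.

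Genes with the ER stress response element, whose stretches are printed above, had differences of either sign. Of the 9, 6 were higher in knockout within both numbers (Hspa5, Dnajc3, Creld2, Calr, Syvn1 and Derl3), 2 were lower within both (Pdia6 and Canx), and Hsp90b1 changed sign. Their median difference was 0.19, with 0.23 and 0.09 within the numbers, beside -0.02 for the 17 kept members whose window held no such match, of which 3 were higher and 5 lower within both. The split overlaps with the branches. The element was found in 7 of the 13 genes with a window in the chaperone, isomerase and lectin branches, and in 2 of 14 others. Hspa5, Hsp90b1, Dnajc3 and Creld2 also belong to the HSP70 and HSP90 branch, so its values recur here. For Canx, a dimmer kept probe set was higher within both numbers, at 0.17 and 0.34. The split by element was not tested. Over all kept genes, 27.6% were higher and 27.2% lower within both numbers. Of the 3 kept genes with the C/EBP-ATF element, Trib3 was higher and Asns and Herpud1 lower within both numbers. A match is a description of the letters in the window and does not show that a factor was bound.

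**Figure D3:**
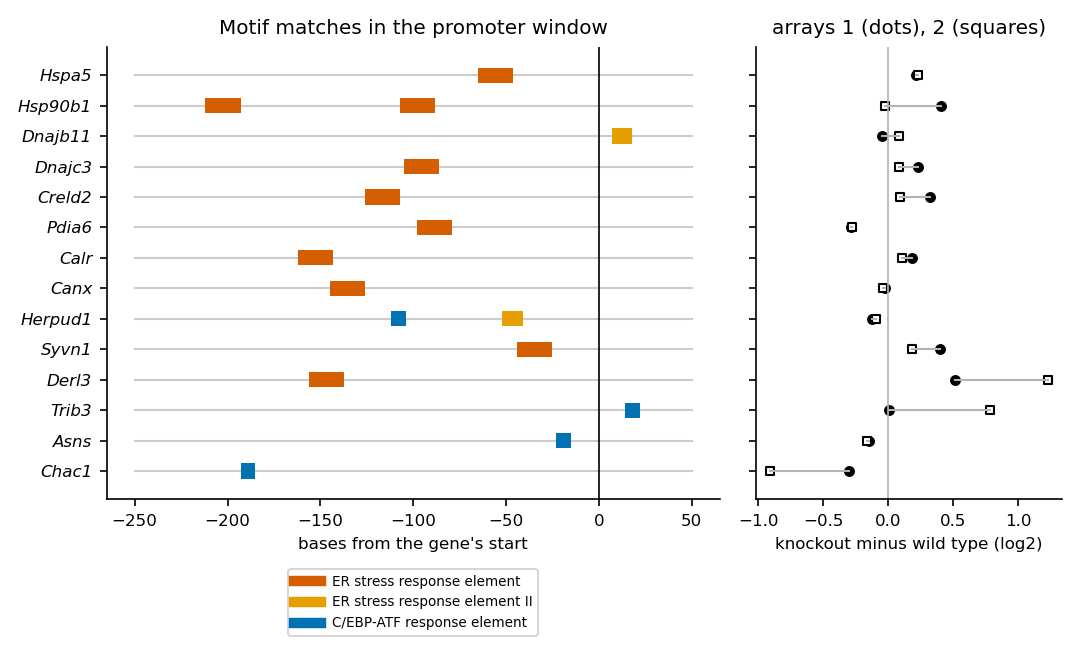
Left, position of motif matches in bases from the gene's start, for the 14 members with a match. Right, knockout minus wild type (log2) of the same genes within arrays numbered 1 (dots) and numbered 2 (squares); Derl3 reaches 1.23 and Pdia6, with the same element, lies at -0.29 and -0.28.

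Variation by array number was larger than variation by genotype for most members. The size of the number effect exceeded that of the genotype difference in 23 of 30 members, or 76.7%, beside 78.3% of all kept genes. In limma with both terms, 19 of 62 member probe sets differed between the numbers at an adjusted p under 0.05, or 30.6%, against 34.1% of all kept probe sets. Of the 19, 14 were brighter and 5 dimmer on the arrays numbered 2. Pdia4 was at 294.7 in wild type and 325.6 in knockout with number 1, and at 976.3 and 865.2 with number 2. Dnajb9 went the other way, from 2437.7 and 2364.4 to 1118.8 and 1121.9.

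The number effect differed between probe sets of a gene. Among the 19 members with more than 1 kept probe set, 12 had probe sets with opposite signs of the number effect. Dnajc3 probe sets ran from -0.54 to 1.98, Sel1l from -1.05 to 0.97 and Xbp1 from -0.45 to 1.52. The genotype difference had a smaller range between probe sets of a gene, with a median of 0.19, against 0.67 for the number effect. It was also smaller in size, with a median over the members of 0.16 regardless of sign, against 0.35 for the number effect. Its range between probe sets thus exceeded its usual size. These ranges and counts are not given here for all kept genes. For 13 of the 19 genes all kept probe sets had the same sign of the genotype difference.

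**Figure D4:**
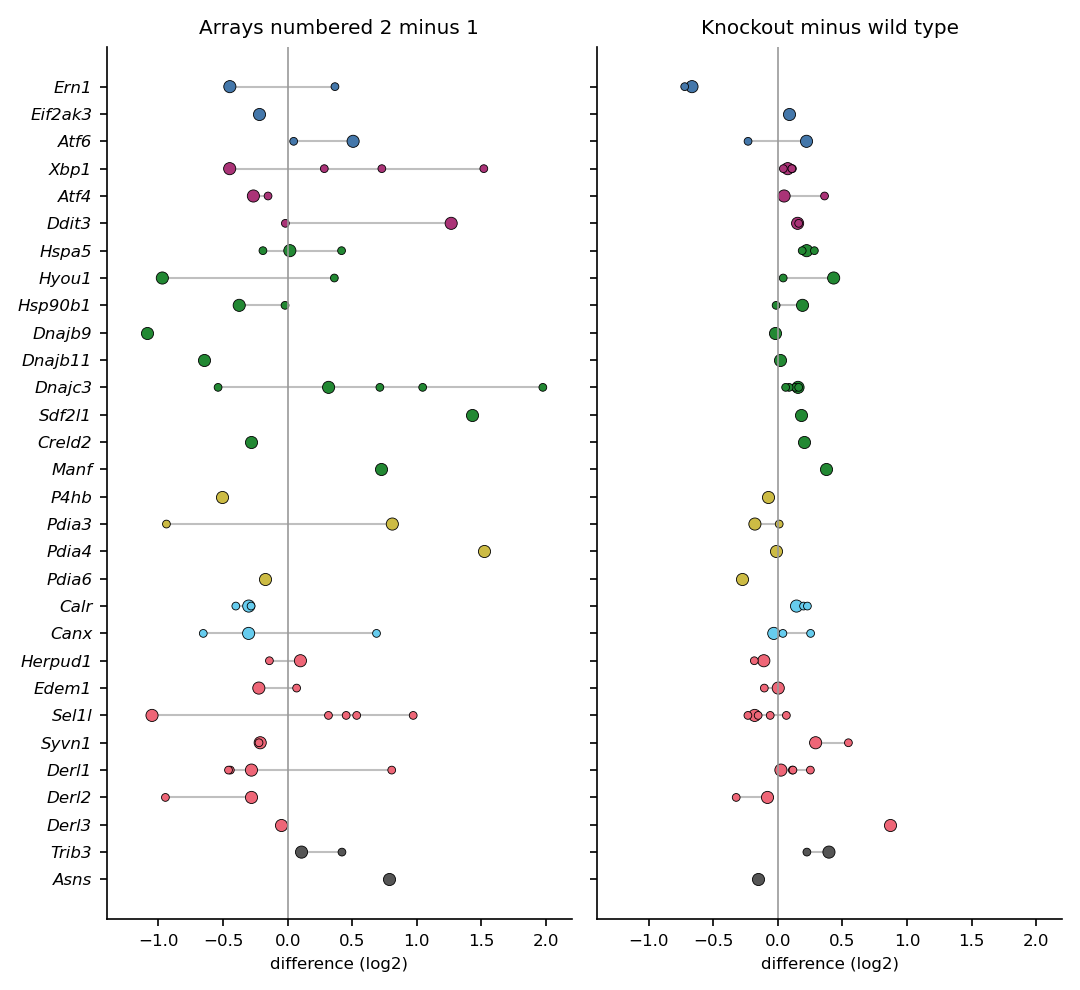
Difference between arrays numbered 2 and 1 (left) and between knockout and wild type (right), both log2, for all 62 kept probe sets of the 30 members; large dots are the brightest probe set of a gene and lines join probe sets of 1 gene. On the left Dnajc3 spans -0.54 to 1.98, while on the right its 5 probe sets lie close together.

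The lists of other pathway genes, apart from that of ATF4 and eIF2 alpha genes, had medians between -0.05 and 0.02. In a list of 135 other ER and stress genes, 115 had a kept probe set. Of these 0 passed limma without the block or with it, and the median was 0.02. Within both numbers 35 (30.4%) were higher and 27 (23.5%) lower, beside 27.6% and 27.2% of all kept genes. The ER translocation and glycosylation genes had 9 higher and 8 lower of 34 (median 0.01), with Rpn1 and Sec61b, of the oligosaccharyltransferase and the translocon, at 0.30 and 0.30, and Srprb and Ssr1 at -0.27 and -0.26. Other folding genes had 6 higher and 5 lower of 22 (median 0.02), led by Dnajc1 and Fkbp2 at 0.30 and 0.25, with Erp44 and Txndc12 at -0.30 and -0.21. Other degradation genes had 5 higher and 9 lower of 24 (median 0.004), with Ubxn4 and Dnajb12 at 0.33 and 0.27, and Erlin2 and Faf2 at -0.32 and -0.27. Among sensing and ATF6-processing genes, 2 were higher and 3 lower of 12 (median -0.05); Map3k5 and Rtcb, the ligase that joins spliced Xbp1, were at 0.26 and 0.21. The protease pair that cuts ATF6, Mbtps2 and Mbtps1, were at -0.41 (-0.39 and -0.42) and -0.09 (-0.06 and -0.13).

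Of 23 other ATF4 and eIF2 alpha genes, 13 (56.5%) were higher and 2 (8.70%) lower within both numbers, beside 27.6% and 27.2% of all kept genes. The other 8 had opposite signs in the 2 numbers. These 23 genes had a median of 0.22, with 0.22 and 0.08 within the numbers, and ran from -0.26 to 2.16. Limma with the block and a trended prior called 3 of them, Ppp1r15a, Cebpb and Ddit4, at adjusted p-values of 5.8e-06, 0.000308 and 0.0420, that is 3 of 23 genes against 1.15% of all kept genes. With the block and the usual prior their limma adjusted p-values were 0.519, 0.282 and 0.589. The lists were chosen with earlier results of these data known, so the counts describe this list and do not test it. Ppp1r15a encodes GADD34, which restores translation by dephosphorylating eIF2 alpha, and was at 490.2 and 625.5 in wild type and 4363.7 and 1462 in knockout, higher by 2.16 (SE 0.61; 3.11 and 1.21). Cebpb, a transcription factor that pairs with ATF4, was at 79.3 and 417.9 in wild type and 264.9 and 1144.7 in knockout, higher by 1.49 (SE 1.03; 1.57 and 1.42). Ddit4 was higher by 0.64 (SE 0.56; 0.88 and 0.40). Cebpb is abundant in myeloid cells. Of 16 measured myeloid markers, 14 were higher in knockout within both numbers and 0 lower, beside 27.6% and 27.2% of all kept genes. Their summed signals were 1433.5 and 4283.8 in wild type and 2289.6 and 15307.9 in knockout. The part of such cells in the Cebpb value was not tested. None of those markers was below 15.3 on all arrays. Lower within both numbers were Ppp1r15b, the constitutive partner of the same phosphatase, at -0.26, and Cebpg at -0.19. Beside these 3 genes, the members Atf4, Ddit3, Trib3 and Asns were at 0.05, 0.15, 0.40 and -0.16, and none of them passed in any of the 3 fits; Chac1, which was dim and not tested, was at -0.61.

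**Figure D5:**
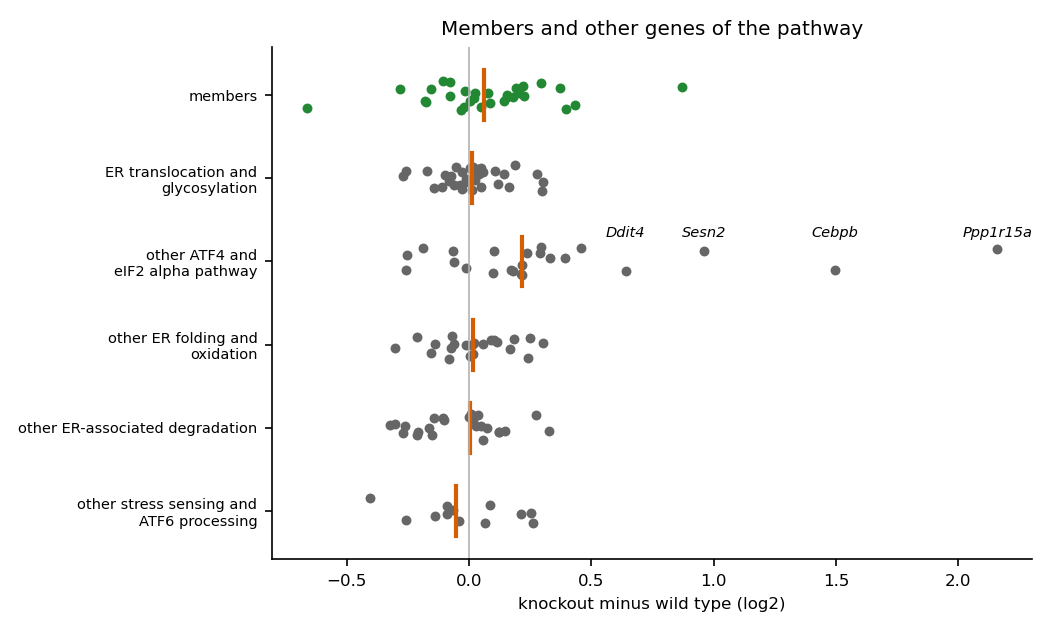
Knockout minus wild type (log2) of the 30 members (green) and of the 115 other pathway genes by list (grey), 1 dot per gene with vertical jitter; bars are medians. Medians lie between -0.05 and 0.22, and Ppp1r15a (2.16) and Cebpb (1.49) lie far to the right of the rest.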

How the data were processed

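The authors deposited 1 linear signal intensity for each probe set and array. No detection calls were used here. The submitters' processing notes name MAS5; which version and settings they used is not given in the sources. Each deposited array had a trimmed mean of 500.003 with 2% trimmed at each end. Of 45101 probe sets, 64 controls were left out. Probe sets were named from the platform annotation (34945 with 1 symbol, 932 with several, 9160 with none), and 34741 symbols were found through their Entrez identifier in RefSeq's GRCm38.p6 table. Signals were taken as log2(signal + 15.3), 15.3 being the 25% quantile of all values, and the 22518 probe sets with a mean signal above the median were kept. The two-sided test was that of limma (version 3.58.1, under R 4.3.3), from lmFit and eBayes on all 4 arrays, with Benjamini-Hochberg adjustment over all kept probe sets. The fit without a block had 2 residual degrees of freedom, the blocked fit 1. Same-numbered arrays deviated together from their group means (correlation 0.80 across probe sets, which are not independent), but the labels state no shared animal or day. The number of arrays limits the precision of every value. The members and lists were chosen with earlier results of these data known. All members were named; of each other pathway list, up to 2 genes per direction with the largest difference among those of the same sign within both numbers. Ddit4, Sdc1, Tnfrsf13b, Jchain, Prdm1, Txndc5, Cd4 and the T cell markers were named outside that rule, after their values were seen. Of 12 T cell markers 8 were measured; B cell, CD8 T and NK cell and erythroid lists are in the closing section. Motif matching used the sequences as the RefSeq table gives them; protein sequences were not used here. Alternatives covered the pseudocount, filter, normalization, prior, threshold, probe set choice, block and each array left out.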

Additional observations from a re-analysis of the deposited data

How the results depend on the processing

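No member passed the threshold under any setting run (no probe set in limma with or without the block), and of 173 summary values under the alternatives, 142 stayed within the spread or within 1.5 times the main count. With the array number as a replicate block the members past the threshold were again 0, and the median difference was 0.06; the block changed no other call among members. The numbers pair arrays only by their label, and which cause makes them deviate together was not tested. With no filter, and with the brightest probe set without a shared ending, the ATF4 target median was -0.16. With no filter, 0 members differed between array numbers, against 9. With the filter at the 75th percentile the members' median was 0.036 and 2 members had knockout arrays above both wild-type arrays. The members' median was 0.094 with median centring, 0.086 with the mean of kept probe sets and 0.045 without shared endings, where 7 members were higher within both numbers and 1 lay above. The lectin chaperone median was 0.14 with the mean of probe sets and 0.25 without shared endings. Of 288 member values under these settings 10 changed sign: Pdia4 (0.0050), Edem1 (-0.016) and Derl1 (-0.013) with quantile normalization; Dnajb9 (0.012), Pdia4 (0.015) and Canx (0.00016) with median centring; Atf6 (-0.0046), Canx (0.087) and Edem1 (-0.051) with the mean of probe sets; and Canx (0.25) without shared endings. The cause of these changes was not tested. A filter on the mean log2 value, chosen after seeing the data, kept 30 members and called 0 member probe sets, while all probe sets called with the block numbered 6.

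With 1 array left out, genotype is mixed with array number by construction, and 22 members changed sign while 8 did not. Of those 8, several still moved by more than 1.5 times: the range was 0.0056 to 0.40 for Creld2, 0.67 to 1.08 for Derl3, -0.99 to -0.34 for Ern1, -0.17 to -0.050 for Herpud1, 0.21 to 0.24 for Hspa5, -0.37 to -0.19 for Pdia6, 0.13 to 0.45 for Syvn1 and 0.15 to 0.64 for Trib3. The members' median ranged from -0.035 to 0.17. The branch medians ranged from -0.22 to 0.16 (sensors), -0.18 to 0.27 (transcription factors), 0.0056 to 0.31 (HSP70 and HSP90), -0.44 to 0.020 (isomerases), -0.11 to 0.22 (lectins), -0.14 to 0.23 (degradation) and -0.20 to 0.44 (ATF4 targets). Single genes ranged from -0.041 to 0.21 for Eif2ak3, -0.22 to 0.66 for Atf6, -0.23 to 0.39 for Xbp1, -0.18 to 0.27 for Atf4 and -0.66 to 0.97 for Ddit3. Among chaperones the range was -0.077 to 0.94 for Hyou1, -0.10 to 0.48 for Hsp90b1, -0.58 to 0.54 for Dnajb9, -0.34 to 0.37 for Dnajb11, -0.039 to 0.35 for Dnajc3, -0.54 to 0.90 for Sdf2l1 and -0.015 to 0.75 for Manf. Among isomerases and lectins it was -0.39 to 0.23 for P4hb, -0.68 to 0.32 for Pdia3, -0.86 to 0.82 for Pdia4, -0.027 to 0.32 for Calr and -0.19 to 0.12 for Canx. In degradation and ATF4 targets it was -0.14 to 0.14 for Edem1, -0.76 to 0.40 for Sel1l, -0.18 to 0.23 for Derl1, -0.22 to 0.061 for Derl2 and -0.55 to 0.24 for Asns. Counts within both numbers could not be computed with an array left out. No detection calls were used here, so how far dim probe sets such as those of Derl3 and Asns lie above background is unknown.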

Other observations

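Markers of other cell types differed in the arrays that carry the members. Over all kept genes, 27.6% were higher and 27.2% lower within both numbers. Of 11 measured B cell markers, 8 were higher in knockout within both numbers and 0 lower. Their summed signals were 1054.5 and 4551.7 in wild type and 1551.1 and 16189.4 in knockout, and the brightest was H2-Aa. Of 10 measured CD8 T and NK cell markers, 5 were higher and 3 lower, with sums of 6239 and 7680.1 in wild type and 5217.5 and 5165.3 in knockout and Ctsw the brightest. Of 5 measured erythroid and platelet markers, 1 was higher and 3 lower, with sums of 123.4 and 519.8 in wild type and 73.3 and 286.7 in knockout and Alas2 the brightest. The brightest plasma cell marker was Igha, at 2819.5 and 189.5 in wild type and 2901.9 and 15064.5 in knockout. Of the 8 T cell markers, 0 were higher and 4 lower within both numbers, with sums of 67732.4 and 128738 in wild type and 62043.1 and 123057 in knockout.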
